A study of Mus musculus with 190 samples.

Results

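Saa3, Hp, Lrg1 and Lipg are 4 of the 55414 genes in a count table of mouse whole blood. They are 3 acute phase genes and the gene of endothelial lipase. The genes were chosen by their levels in single libraries over the 20 groups of the study and by dermatitis score, so their differences between samplings, days, kinds of housing and scores are a description and carry no test. A test on them is given only for the likeness of the genes within a group and score. The selection had the same single libraries in view, so its p-values are no independent support.

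The study followed the blood transcriptome of the inbred mouse strain NC/Nga, in which conventional housing can bring on a dermatitis resembling the atopic form, across the time of its onset and over its grades of severity. All animals were male and labelled wild type, and ages are not in the labels. In 9 conventional cohorts, with 10 libraries from each sampling, the second sampling was on day 44 in cohorts 1, 3, 5, 7 and 9 and on day 40 in cohorts 2, 4, 6 and 8. The same cohorts had their first sampling on days 2, 5, 9, 12, 16, 19, 23, 26 and 30, from cohort 1 to cohort 9 in that order. A control cohort of specific-pathogen-free (SPF) mice, all scored 0, gave 5 libraries on day 44 and 5 on day 16. Whether libraries of 1 cohort with the same number came from the same animal is not said in the labels. Each label also gives a dermatitis score. Scores of 2 or more were given to 67 of 90 libraries of the second sampling and to 11 of 90 libraries of the first. A score of 0 was given to 7 libraries of the second sampling and to 58 of the first.

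The acute phase response is the change in secreted proteins that follows infection or tissue injury, driven largely by interleukin 6, interleukin 1 and tumour necrosis factor. Most acute phase proteins in plasma come from hepatocytes, but several of their genes are also transcribed in leukocytes. Saa3 encodes a serum amyloid A protein that, in mice, is made mainly outside the liver, by macrophages, fat and epithelium among others. Hp encodes haptoglobin, the plasma protein that captures free haemoglobin, and neutrophils store it in their granules. Lrg1 encodes a secreted leucine-rich glycoprotein that modulates TGF-beta signalling in endothelium and is also held in neutrophil granules. Lipg encodes endothelial lipase, a phospholipase that acts on high-density lipoprotein at the vessel wall.

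RefSeq promoters on build GRCm38.p6, from 250 bases before the start to 50 after it, were at hand for 2 of the 4 genes. They are shown because both genes were higher in the same groups, and they lie at chr7:46715627-46715926 for Saa3 and chr17:56121897-56122196 for Lrg1, both on the minus strand and written 5′ to 3′. The motifs searched on both strands were TTNNGCAA (a core of C/EBP sites), TTCNNNGAA (STAT), TATAAA and the NF-kB consensus, with no overlap between the matches found, and capitals mark a match.
Saa3: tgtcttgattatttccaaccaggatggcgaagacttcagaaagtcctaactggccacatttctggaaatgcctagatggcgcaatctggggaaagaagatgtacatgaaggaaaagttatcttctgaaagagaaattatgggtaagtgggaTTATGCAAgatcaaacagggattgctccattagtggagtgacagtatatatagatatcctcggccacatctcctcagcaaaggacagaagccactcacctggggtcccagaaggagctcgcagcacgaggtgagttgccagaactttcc
Lrg1: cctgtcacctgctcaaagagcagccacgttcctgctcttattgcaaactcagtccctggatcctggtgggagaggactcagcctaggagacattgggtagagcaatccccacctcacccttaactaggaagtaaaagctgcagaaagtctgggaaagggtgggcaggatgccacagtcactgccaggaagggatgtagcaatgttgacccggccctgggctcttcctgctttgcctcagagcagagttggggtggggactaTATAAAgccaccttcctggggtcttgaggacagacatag
The Saa3 window holds TTNNGCAA at position -99 from the start base on the strand of the gene, and the Lrg1 window holds TATAAA at position 11. Among 32851 promoters of the same length, 10.8% hold TTNNGCAA, 8.30% hold TTCNNNGAA, 13.6% hold TATAAA and 4.51% hold the NF-kB consensus. The windows of Saa3 and Lrg1 hold none of the other motifs, which says only that those letters are not in them.

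On build GRCm39, the table places Saa3 (ENSMUSG00000040026.9) on chromosome 7 at 46361422 to 46365124, Hp (ENSMUSG00000031722.11) on chromosome 8 at 110301760 to 110305804, Lrg1 (ENSMUSG00000037095.9) on chromosome 17 at 56426678 to 56429001 and Lipg (ENSMUSG00000053846.6) on chromosome 18 at 75072393 to 75094334. All 4 are protein-coding genes on the minus strand, and 0 other genes of the table overlap them. The values below are sums over each whole gene. Saa3 has close paralogs, so reads from them could be split among copies, but Saa1 had a count in only 14 of 190 libraries and Saa2 in 5.

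Depth lay between 21444129 and 71967299 total counts over the 190 libraries, around a median of 36448181. Globin genes took 0.368% to 45.3% of the counts, and 1 library, an SPF one, was above 20%. After a filter on low counts, 18192 genes were tested, and all 4 genes passed it. Levels are given in CPM, counts divided by a library size that was scaled by the trimmed mean of M-values (TMM), and levels of different genes are compared only in the authors' TPM, which account for gene length as well. In whole blood, fewer cells of a type and less RNA per cell cannot be told apart.

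Saa3 and Lipg transcripts were scarce in most libraries and far higher in a few. Saa3 had a lowest level of 0, a median of 0.604 and a highest of 92.1 CPM in the second sampling (n = 90), against 0, 0.0479 and 19.0 CPM in the first sampling (n = 90) and 0, 0.0183 and 0.195 CPM in SPF mice (n = 10 libraries of both days). Lipg had 0, 0.666 and 94.02 CPM in the second sampling, against 0, 0.0246 and 33.6 CPM in the first sampling, while 9 of 10 SPF libraries were at 0 and the other had 0.0483 CPM. The samplings overlap for both genes, and the median of the second sampling lies far below its own highest library. Saa3 was at 0 in 7 libraries of the second sampling and 35 of the first, and Lipg in 5 and 41.

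Hp and Lrg1, in contrast, were detected in all 190 libraries. Hp had a lowest level of 20.4, a median of 145.5 and a highest of 634 CPM in the second sampling, against 11.1, 43.04 and 362 CPM in the first sampling and 11.7, 25.4 and 48.7 CPM in SPF mice. Lrg1 had 1.69, 29.3 and 144.06 CPM in the second sampling, against 0.507, 6.70 and 97.5 CPM in the first sampling and 0.861, 1.92 and 4.96 CPM in SPF mice. The ranges overlap here too, but the low end of the second sampling is thinly filled: 82 of its 90 libraries for Hp and 81 for Lrg1 were above the highest of the 30 libraries of days 2, 5 and 9. On the TPM scale, medians in the second sampling were 31.8 for Hp, 9.34 for Lrg1, 0.464 for Saa3 and 0.0385 for Lipg, so per length haptoglobin was the most abundant of the 4 transcripts and Lipg the least.

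**Figure D1:**
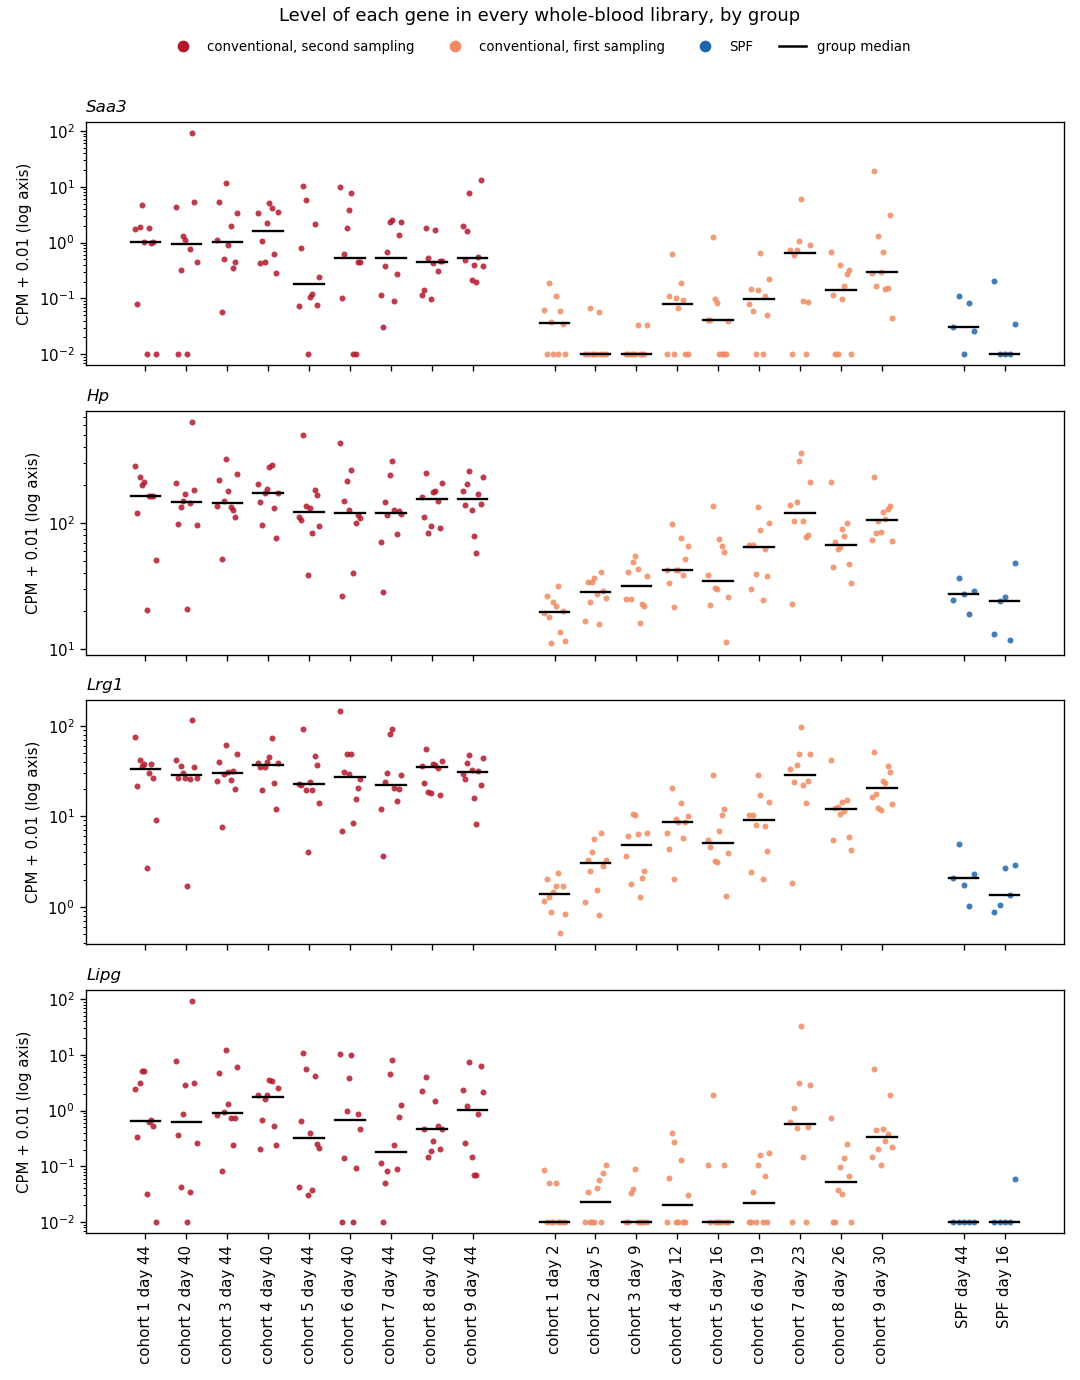
Levels of the 4 genes in every library (vertical axis, CPM + 0.01 on a log scale) for the 9 cohorts of the second sampling, the 9 cohorts of the first sampling and the SPF cohort on days 44 and 16, with 1 point per library and a bar at each group's median. The medians of Hp lie between 121.2 and 172.5 CPM in the second sampling, and those of the first sampling reach 121.4 CPM on day 23 and 106.03 CPM on day 30.

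Across first-sampling days the medians of all 4 genes were highest on day 23, and those of Hp and Lrg1 were lowest on day 2. Group medians of Hp were 19.6, 28.3, 31.5, 42.5, 34.4, 64.3, 121.4, 67.6 and 106.03 CPM on days 2, 5, 9, 12, 16, 19, 23, 26 and 30 (n = 10 each). Those of Lrg1 were 1.36, 3.03, 4.82, 8.60, 5.01, 9.15, 28.96, 11.9 and 20.4 CPM on the same days. The order was not monotonic: day 16 was below day 12 and day 26 below day 23 for both genes. Medians of Saa3 stayed at or under 0.129 CPM on every day other than 23 and 30, where they were 0.647 and 0.282 CPM, although the highest single library was on day 30. Lipg medians were at or under 0.0420 CPM outside the same days, and 0.555 and 0.325 CPM on days 23 and 30. Each first-sampling day is a single cohort, so in the first sampling a day cannot be told apart from its cohort.

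In the second sampling, group medians ran from 121.2 to 172.5 CPM for Hp, from 22.4 to 36.96 CPM for Lrg1, from 0.168 to 1.63 CPM for Saa3 and from 0.169 to 1.74 CPM for Lipg. Cohort 4, sampled on day 40, had the highest median of all 4 genes. Ordered by median, the 20 groups of each gene form 19 neighbouring pairs, and in all 19 the ranges of the neighbours overlap.

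A few libraries held most of the Saa3 and Lipg signal. In the second sampling the highest library held 36.5% of the summed Saa3 CPM and 35.3% of the summed Lipg CPM, against 4.37% for Hp and 4.83% for Lrg1. Over all genes tested, the median of this share was 2.81% and the 90th percentile 8.87%. It took 4 libraries to hold 50% of the Saa3 signal and 5 to hold 50% of the Lipg signal, against 28 for Hp, 26 for Lrg1 and a median of 32 over all genes. The highest 9 libraries of 90 held 64.9% for Saa3, 62.7% for Lipg, 22.9% for Hp and 26.5% for Lrg1, beside a median over all genes of 18.7%. Saa3 and Lipg thus lie above the 90th percentile of all genes for the highest 9 libraries, which is 44.3%, while Hp and Lrg1 lie below it.

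The first sampling was more uneven still. Its highest library held 58.8% of the Lipg signal and 45.5% of the Saa3 signal, beside 8.90% for Lrg1, 6.06% for Hp and a median of 2.33% over all genes. For Lipg 1 library and for Saa3 2 libraries held 50% of the signal, against 14 for Lrg1, 19 for Hp and a median of 34 over all genes.

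**Figure D2:**
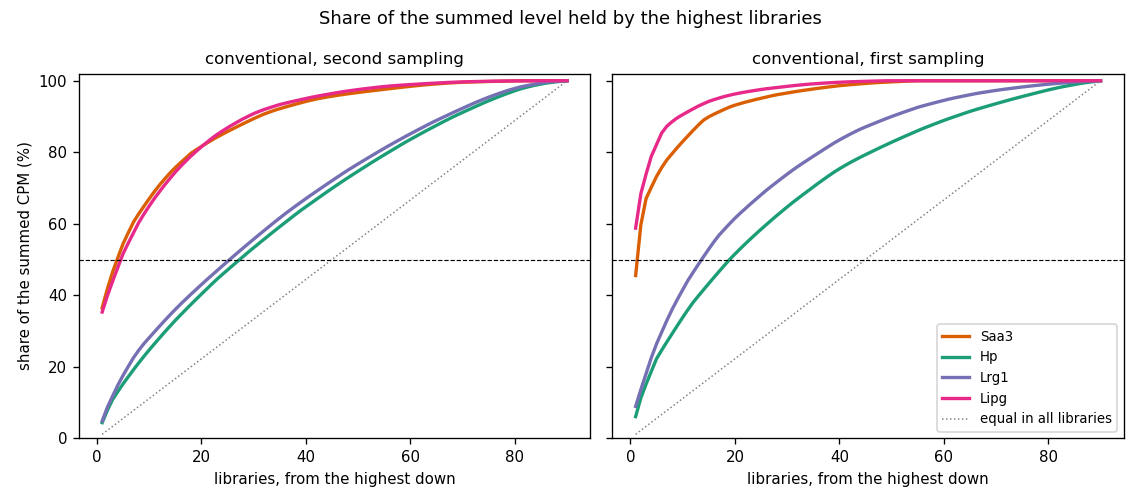
Cumulative share of each gene's summed CPM (vertical axis, percent) against the number of libraries counted from the highest down (horizontal axis), for the second and the first sampling, with a dashed line at 50% and a dotted line for equal levels in all libraries. The Saa3 and Lipg curves cross 50% at 4 and 5 libraries in the second sampling, and those of Hp and Lrg1 at 28 and 26.

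The library that stood highest was replicate 8 of cohort 2 on day 40, with a score of 3. It had 92.1 CPM of Saa3, 634 CPM of Hp, 115.3 CPM of Lrg1 and 94.02 CPM of Lipg. It ranked first of 90 for Saa3, Hp and Lipg and second for Lrg1. In the same library 20 genes that mark mature neutrophils summed to 28324 CPM and 10 secondary granule genes to 1806 CPM, both the highest of the 90. Within its cohort and day, mean Saa3 was 10.6 CPM with an SD of 28.7, where the median was 0.928 CPM, so the group mean rested on it.

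Other high libraries did not carry all 4 genes alike. Replicate 9 of cohort 9 on day 44, with a score of 0.5, had the next highest Saa3 level at 13.5 CPM and 6.32 CPM of Lipg. The same library had 142.9 CPM of Hp and 22.4 CPM of Lrg1, ranks 47 and 63 of 90. Its summed mature neutrophil level of 10113 CPM ranked 13, and its summed secondary granule level of 784 CPM ranked 6. Of the highest 9 libraries for each gene, Saa3 and Lipg shared 7, Hp and Lrg1 shared 7, and all 4 genes shared 4. In the first sampling all 4 genes shared 6, and the leading libraries were replicate 6 of cohort 7 on day 23 (33.6 CPM of Lipg, 362 CPM of Hp, 97.5 CPM of Lrg1, 5.91 CPM of Saa3) and replicate 2 of cohort 9 on day 30 (19.0 CPM of Saa3, 5.51 CPM of Lipg). Both had a score of 2.

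Within the second sampling, median levels of all 4 genes in CPM were highest at the top of the dermatitis scale. Over scores of 0 or 0.5 (n = 12), 1 (n = 11), 2 (n = 27) and 3 or 4 (n = 40), median Saa3 was 0.148, 0.108, 0.425 and 2.26 CPM. Median Lipg was 0.117, 0.230, 0.331 and 2.85 CPM over the same classes. Both genes had low medians in the lower 3 classes and higher ones in the top class, although its range for Saa3 (0.0878 to 92.1 CPM) still reached into that of score 2 (0 to 1.84 CPM). Median Hp was 115.1, 101.1, 115.5 and 185.3 CPM, and median Lrg1 was 18.3, 20.2, 25.7 and 38.1 CPM. The Hp medians of the lower 3 classes lie close together and the top class above them, with ranges of 51.8 to 249 CPM at score 2 and 94.5 to 634 CPM at scores 3 and 4. On the TPM scale this order did not hold for Hp and Lrg1. Their median TPM over the same classes were 36.4, 29.8, 27.8 and 33.8 for Hp and 10.06, 9.59, 8.67 and 9.64 for Lrg1. Median TPM of Saa3 and Lipg were highest in the top class, at 1.46 and 0.119.

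The class of scores 0 and 0.5 was mixed. In the 7 libraries of score 0 the medians were 40.2 CPM for Hp and 8.44 CPM for Lrg1, and in the 5 libraries of score 0.5 they were 150 and 34.1 CPM. The ranges overlap, from 20.4 to 216 CPM of Hp at score 0 and from 135.55 to 166.6 CPM at score 0.5, since replicate 4 of cohort 6 on day 40 had a score of 0 with 216 CPM of Hp and 48.4 CPM of Lrg1. Of 40 libraries with a score of 3 or 4, those above the highest library of days 2, 5 and 9 numbered 39 for Saa3, 40 for Hp, 40 for Lrg1 and 38 for Lipg. Levels above the earliest days were thus common among the highest scores, also for the 2 genes whose sums rest on few libraries.

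**Figure D3:**
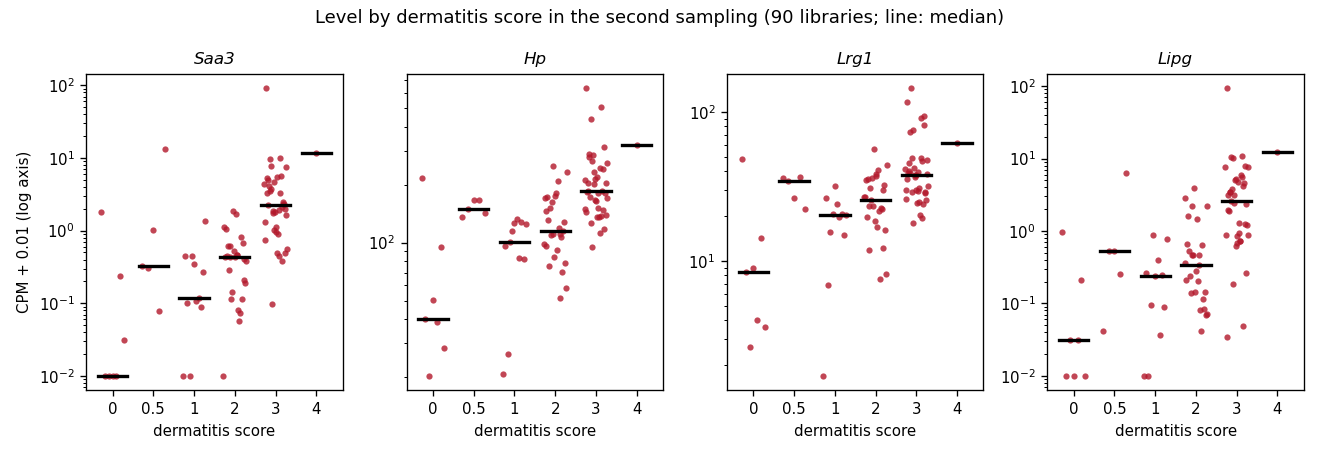
Levels of the 4 genes (vertical axis, CPM + 0.01 on a log scale) against the dermatitis score of the same library (horizontal axis, score points) in the second sampling, with 1 point per library and a bar at each median. At score 3 the 39 libraries have a median of 2.21 CPM for Saa3 and 184.4 CPM for Hp, against 0 and 40.2 CPM in the 7 libraries of score 0.

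Over the 90 libraries of the second sampling, in a model that also held the cohort, the difference per score point was 1.18 ± 0.23 (log2 ± SE) for Saa3, 0.51 ± 0.08 for Hp, 0.57 ± 0.09 for Lrg1 and 1.48 ± 0.24 for Lipg. Of all genes tested, 36.6% were called in this slope by edgeR's quasi-likelihood test at a Benjamini-Hochberg adjusted p under 0.05. Within cohorts 1 to 4 alone the slopes were 1.98 ± 0.36, 0.61 ± 0.12, 0.58 ± 0.14 and 2.34 ± 0.39 for Saa3, Hp, Lrg1 and Lipg in that order, and within cohorts 6 to 9 they were 0.45 ± 0.32, 0.41 ± 0.12, 0.55 ± 0.15 and 0.88 ± 0.35. With the mean level of 19 mature neutrophil genes as a covariate they were 0.23 ± 0.17, 0.07 ± 0.03, 0.10 ± 0.06 and 0.35 ± 0.18. All of these values are positive, and the neutrophil covariate left the smallest. Slopes were smaller in TPM. On log2(TPM + 1) they were 0.28 for Hp and 0.32 for Lrg1, against 0.57 and 0.63 on log2(CPM + 1).

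In the first sampling, over the 60 libraries of days 12 to 30, the slopes were 1.35 ± 0.45 for Saa3, 0.62 ± 0.16 for Hp, 0.65 ± 0.21 for Lrg1 and 1.71 ± 0.48 for Lipg per score point, where 10.0% of all genes were called. With the neutrophil covariate these slopes were -0.23 ± 0.35, -0.08 ± 0.08, -0.30 ± 0.13 and -0.45 ± 0.37 in the same order. On a log2(CPM + 1) scale, leaving out replicate 6 of cohort 7 on day 23 alone took the Lipg slope to 0.26, against 0.51 with it, and the Saa3 slope to 0.22, against 0.35.

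The difference of the slope per score point between the samplings was fitted over 150 libraries. Levels by score, from which the genes were chosen, enter it, so no p is given for the 4 genes. Slopes of the second sampling minus those of the first were -0.14 ± 0.49 for Saa3 (95% interval -1.10 to 0.82) and -0.11 ± 0.18 for Hp (-0.46 to 0.23). They were -0.09 ± 0.22 for Lrg1 (-0.53 to 0.35) and -0.21 ± 0.51 for Lipg (-1.21 to 0.79). All 4 intervals hold 0, and those of Saa3 and Lipg are wide enough to hold differences of about 1 on the log2 scale in the negative direction. Of all genes, the 4 included, edgeR called 0% in this difference, although 2345 had an unadjusted p under 0.05, while 293 genes passed in DESeq2.

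Between the samplings, all 4 genes were higher in the second one. With cohort as a covariate over 180 libraries, the difference was 3.37 ± 0.43 for Saa3, 1.56 ± 0.15 for Hp, 1.95 ± 0.20 for Lrg1 and 3.81 ± 0.46 for Lipg (log2, second minus first sampling, ± SE). Of all genes tested, 62.1% were called in this contrast, 5720 higher and 5573 lower, with a median of -0.02 and a 90th percentile of 0.64. Without the library of the highest Saa3 level the values were 3.20 ± 0.40, 1.502 ± 0.14, 1.91 ± 0.19 and 3.61 ± 0.44 for Saa3, Hp, Lrg1 and Lipg in that order, nearly as large as with it. With the neutrophil covariate they were 0.16 ± 0.27, 0.02 ± 0.05, 0.14 ± 0.10 and 0.07 ± 0.21. All 4 values lie within 2 SE of 0 once that list is in the fit.

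The size of the change went with the day of the first sampling. From cohort 1 (first sampled on day 2) to cohort 9 (day 30), the second minus the first sampling gave 3.04, 2.70, 2.32, 1.77, 1.66, 1.29, -0.19, 0.90 and 0.48 (log2) for Hp, with SE of 0.36 to 0.39. For Lrg1 the values were 4.51, 3.54, 2.65, 2.00, 1.92, 1.85, -0.10, 1.25 and 0.31. In cohort 7, whose first sampling was on day 23, both values lay within 1 SE of 0. For Lipg the values were 6.37, 8.51, 7.37, 4.30, 3.52, 5.67, -1.61, 3.05 and 1.15, with SE of 0.91 to 1.43. For Saa3 they were 4.55 and 9.66 in cohorts 1 and 2, then 4.21, 3.77, 4.08, -0.05, 1.66 and 0.14 in cohorts 4 to 9. The first samplings of cohorts 2 and 3 summed to only 4 and 2 counts of Saa3, so the value of cohort 2 is imprecise and none is given for cohort 3. Lipg summed to only 8, 11 and 6 counts in the first samplings of cohorts 1, 2 and 3, so the size of its change there is imprecise too. Single libraries decided several of the Saa3 and Lipg values. Replicate 6 of cohort 7 held 79.3% of the Lipg signal and 58.9% of the Saa3 signal of day 23, and without it the change in cohort 7 was 0.47 ± 0.93 for Lipg and 1.01 ± 0.95 for Saa3. Leaving out replicate 6 of day 44 in the same cohort gave -2.46 ± 0.98 for Lipg. Replicate 2 of cohort 9 held 75.8% of the Saa3 signal of day 30, and without it the change in cohort 9 was 2.00 ± 0.89 for Saa3 and 2.19 ± 0.98 for Lipg. Without replicate 9 of day 44 the Saa3 change in cohort 9 was -0.70 ± 0.87. In cohort 2, without replicate 8 of day 40 the values were 6.83 ± 1.35 for Saa3 and 5.80 ± 1.28 for Lipg. In cohort 5, without replicate 3 of day 16 they were 5.93 ± 1.28 for Saa3 and 6.29 ± 1.36 for Lipg.

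**Figure D4:**
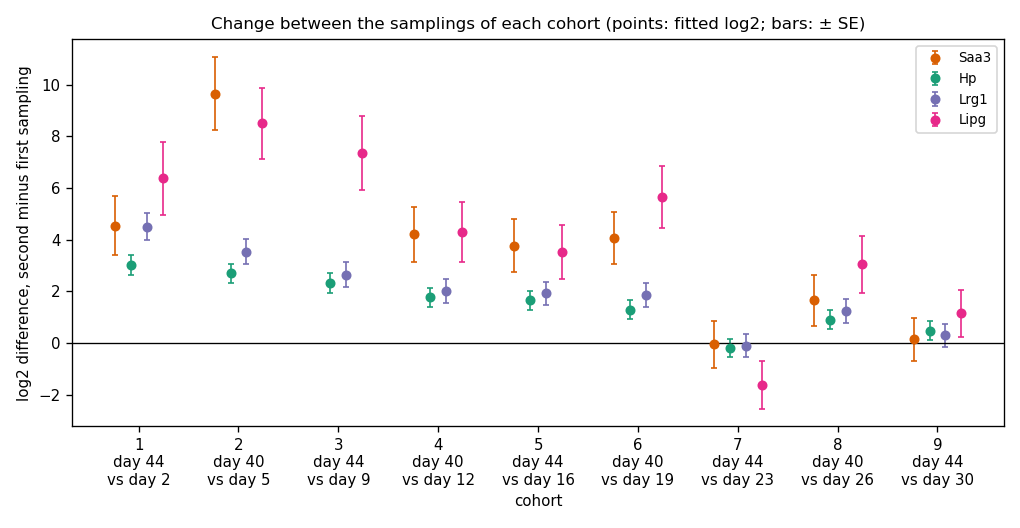
Change in each cohort (vertical axis, log2, second minus first sampling, ± SE) for each of the 9 cohorts (horizontal axis, with the 2 days of sampling under each number) and the 4 genes; Saa3 in cohort 3 is left out for low counts. The values of Hp are 3.04 in cohort 1 (day 2), 1.66 in cohort 5 (day 16) and -0.19 in cohort 7 (day 23).

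Of all genes, 35.3% were called in the edgeR test of any difference of the change among the 9 cohorts. No p is given for the 4 genes, which were chosen by their levels over these groups. Pooled within blocks of cohorts, the change was 6.08 ± 0.60, 2.46 ± 0.18, 3.14 ± 0.25 and 6.54 ± 0.61 in cohorts 1 to 4, and 1.28 ± 0.52, 0.62 ± 0.19, 0.82 ± 0.25 and 1.73 ± 0.66 in cohorts 6 to 9, both for Saa3, Hp, Lrg1 and Lipg in that order. The change was thus smaller in the cohorts first sampled late. For Saa3 and Lipg the values of cohorts 1 to 4 rest on few first-sampling counts, so their size is uncertain.

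Over the first sampling alone, the linear trend per 10 days was 2.37 ± 0.27 for Saa3, 0.96 ± 0.10 for Hp, 1.39 ± 0.15 for Lrg1 and 2.93 ± 0.41 for Lipg, where 52.3% of all genes were called. Within cohorts 1 to 4 (days 2 to 12) the trends were 1.28 ± 0.82, 1.28 ± 0.22, 2.53 ± 0.37 and 1.86 ± 0.87, and within cohorts 6 to 9 (days 19 to 30) they were 3.01 ± 0.90, 0.39 ± 0.38, 0.53 ± 0.52 and -0.24 ± 1.54, in the same order of genes. The Lipg value of the later days is too imprecise to give a direction, and without replicate 6 of cohort 7 on day 23 it was 2.09 ± 1.02. With the neutrophil covariate over all days the trends were 0.27 ± 0.32, -0.02 ± 0.05, 0.06 ± 0.10 and -0.39 ± 0.37.

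SPF animals stayed low on both days. On day 44 the 50 conventional libraries had pooled levels of 148.5 CPM of Hp, 29.1 CPM of Lrg1, 1.85 CPM of Saa3 and 1.796 CPM of Lipg. The 5 SPF libraries of that day had 24.6, 36.6, 27.6, 19.1 and 28.9 CPM of Hp. Lrg1 was at 2.10, 4.96, 1.75, 1.01 and 2.32 CPM in the same 5 libraries. Saa3 was at 0.0210, 0.0999, 0, 0.0742 and 0.0157 CPM, and Lipg at 0 in all 5. The ranges overlap for all 4 genes, as the lowest conventional libraries of day 44 had 20.4 CPM of Hp, 2.64 CPM of Lrg1 and 0 CPM of Saa3 and Lipg.

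The fitted difference on day 44, conventional minus SPF, was 2.52 ± 0.45 for Hp, 3.67 ± 0.61 for Lrg1 and 5.33 ± 1.59 for Saa3 (log2 ± SE), where 19.7% of all genes were called. For Lipg the pooled conventional level was at least 148.6-fold higher than the floor of 3 counts over the 5 SPF libraries, 0.0121 CPM. Housing was fixed per cohort, so housing and the SPF cohort cannot be told apart. With the neutrophil covariate the difference was -0.06 ± 0.16 for Hp, 0.71 ± 0.26 for Lrg1 and -1.88 ± 1.44 for Saa3.

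On day 16 cohort 5 had median levels of 34.4 CPM of Hp, 5.01 CPM of Lrg1, 0.0304 CPM of Saa3 and 0 CPM of Lipg, against 24.1, 1.33, 0 and 0 CPM in the 5 SPF libraries of that day. The groups overlap for all 4 genes. The difference was 1.00 ± 0.51 for Hp, 2.20 ± 0.68 for Lrg1 and 1.38 ± 1.57 for Saa3, where 0.473% of all genes were called. The Saa3 value rested on SPF replicate 1, whose 0.195 CPM was the highest of the SPF cohort: without it the difference was 3.87. It rested as much on replicate 3 of cohort 5, which held 42 of the 53 Saa3 counts of that group: without that library the difference was -0.85 ± 1.48. Lipg had 72 counts over cohort 5, of which 62 were in the same replicate 3, and 2 counts over the SPF libraries of day 16.

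The change between the days was set against that of SPF mice, in the 20 libraries of cohort 5 and the 10 SPF ones. From day 16 to day 44, Hp changed by 1.66 ± 0.41 in cohort 5 and by 0.14 ± 0.57 in SPF mice (log2 ± SE). Lrg1 changed by 1.92 ± 0.49 in cohort 5 and by 0.50 ± 0.72 in SPF mice. The difference of the changes was 1.51 ± 0.70 for Hp (95% interval 0.14 to 2.88), 1.42 ± 0.87 for Lrg1 (-0.29 to 3.13) and 4.00 ± 2.27 for Saa3 (-0.46 to 8.45). No value is given for Lipg, which had 2 counts over all SPF libraries. These differences depend on single libraries. Without replicate 3 of cohort 5 on day 16 they were 1.83 ± 0.65 for Hp, 1.91 ± 0.78 for Lrg1 and 6.22 ± 2.08 for Saa3. Among the SPF libraries, 12 of the 13 Saa3 counts of day 16 were in replicate 1. No p is given for the 4 genes, which were chosen by levels over groups that include these. The intervals are not adjusted for the number of genes, and with 5 SPF libraries a day they remain wide. Of all genes, the 4 included, edgeR called 0%, although 1880 had an unadjusted p under 0.05, while 55 passed in DESeq2.

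Once group and score were removed, the 4 genes still varied together among the 90 libraries of the second sampling, in pairs of unequal closeness. Hp and Lrg1 were the closest pair, with Pearson r = 0.95 and Spearman rho = 0.94, and Saa3 and Lipg came next with r = 0.88 and rho = 0.81. Between these pairs the correlations were weaker: r was 0.62 for Hp and Lipg, 0.57 for Saa3 and Hp, 0.54 for Lrg1 and Lipg and 0.47 for Saa3 and Lrg1, with rho of 0.65, 0.52, 0.58 and 0.45. For r, all 6 pairs had a two-sided permutation p of 1e-05, the smallest that 100000 permutations can give, and the same after Benjamini-Hochberg adjustment over the 6 pairs. For rho the adjusted p were 1.2e-05 for 5 pairs and 4e-05 for Saa3 and Lrg1. These p are set only against no relation, and the genes were chosen with their single high libraries in view. How many other gene pairs in blood reach such p was not worked out, so they do not set these pairs apart.

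Leaving out the 2 libraries farthest from the median of the gene named first in a pair gave r of 0.94 for Hp and Lrg1, 0.82 for Saa3 and Lipg, and 0.43 to 0.63 for the other 4 pairs. Within cohorts 1 to 4 (n = 40) r was 0.96 for Hp and Lrg1, 0.89 for Saa3 and Lipg and 0.46 for Saa3 and Lrg1, and within cohorts 6 to 9 (n = 40) it was 0.95, 0.86 and 0.55. The largest adjusted permutation p within either block was 0.00569. A library high in haptoglobin for its group and score was thus high in Lrg1, whereas a high Saa3 level went first of all with a high Lipg level.

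**Figure D5:**
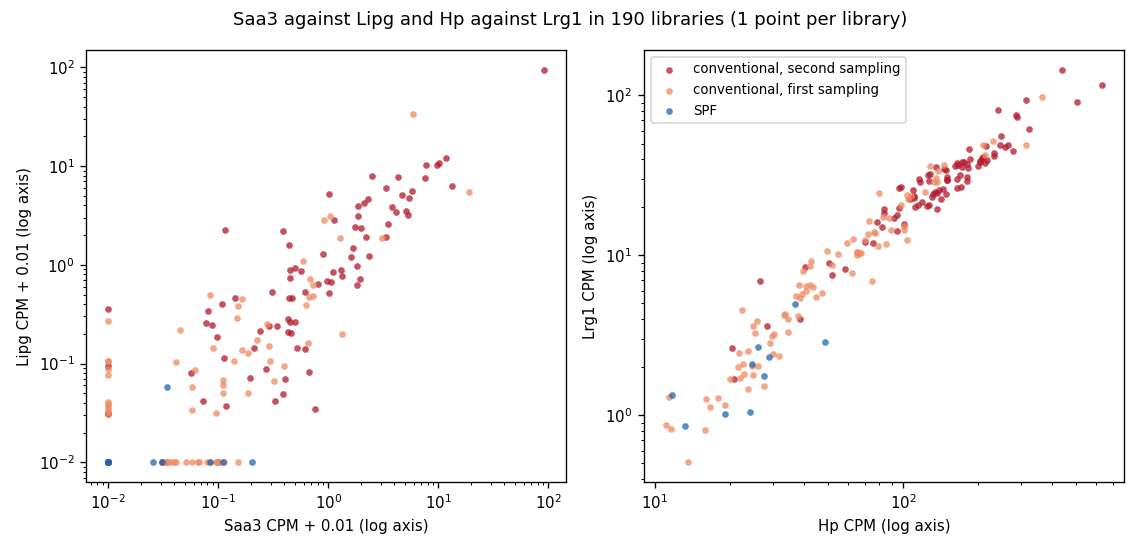
Levels in the same library, as Lipg (vertical axis) against Saa3 (horizontal axis), both in CPM + 0.01 on log axes, and as Lrg1 against Hp, both in CPM on log axes, with 1 point for each of the 190 libraries, coloured by sampling. The points of Hp and Lrg1 lie in a narrow band over the whole range, and those of Saa3 and Lipg spread more widely below 1 CPM and end in a single library at 92.1 CPM of Saa3 and 94.02 CPM of Lipg.

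The same division appeared in the genes most like each member. Over deviations from the group means in 190 libraries, among 11323 genes with a mean of at least 1 CPM, the 5 closest to Saa3 were Lipg (r = 0.90), Kit (0.84), Ifitm6 (0.81), Gyg (0.81) and Kcnn3 (0.80). Those closest to Lipg were Kit (0.90), Saa3 (0.90), Mcam (0.86), Ly6g (0.85) and Kcnn3 (0.85). Kit encodes the receptor for stem cell factor, Mcam an adhesion molecule and Ly6g a surface protein of mouse neutrophils. The closest to Hp were Hdc (0.97), Anxa2 (0.96), Pygl (0.96), Xdh (0.96) and Pfkfb4 (0.96), and to Lrg1 Hp (0.95), Fgr (0.94), Pi16 (0.94), Ppp1r3d (0.93) and Slc2a6 (0.93). Hdc encodes histidine decarboxylase, Pygl a glycogen phosphorylase and Fgr a kinase of myeloid cells. Without the library of the highest Saa3 level, r between Saa3 and Lipg was 0.88 and between Lipg and Kit 0.89. These r are descriptions across libraries that share depth and scaling, and no p is given.

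Most other genes of the acute phase response were too low in blood to be tested. Of 28 listed, 12 passed the filter on low counts. Those that did not pass include Saa1, Saa2, Saa4, Crp, Apcs, Orm1, Orm2, Orm3, the fibrinogen genes and Hpx. Orm2 had 0 counts in all 190 libraries, and Crp had a count in 41. Of the 12 tested, 7 were higher and 3 lower in the second sampling than in the first, with a median of 0.70 (log2), beside 62.1% of all genes called in either direction and a median of -0.02 over all genes. Mature neutrophil genes moved with this list, with 19 of 19 higher, and Lcn2 and Chil3 are also in the list of neutrophil secondary granule genes; the part of neutrophils in it was not tested. Steap4, a metalloreductase, differed most at 2.55 ± 0.23 (adjusted p 5.39e-20), followed by Lcn2, the iron-siderophore binder lipocalin, at 1.93 ± 0.19 (adjusted p 3.81e-17) and Chil3, a chitinase-like protein, at 1.65 ± 0.20 (adjusted p 5.39e-13). All 3 are also expressed by leukocytes. Per score point in the second sampling, 6 of the 12 were higher and 0 lower, beside 36.6% of all genes called, with Lcn2 at 0.57 ± 0.10 and Chil3 at 0.55 ± 0.11.

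Among 22 inducers of the response and their signalling genes, 15 were higher and 3 lower in the second sampling, beside 62.1% of all genes called, with a median of 0.50. Csf3r is also in the mature neutrophil list, in which 19 of 19 genes tested were higher. The part of neutrophils in these differences was not tested. Socs3, the feedback inhibitor of STAT3 signalling, was higher by 1.51 ± 0.14 (adjusted p 2.21e-18), Il1rap, a subunit of the interleukin 1 receptor, by 1.30 ± 0.14 (adjusted p 3.30e-15) and Cebpd, a C/EBP transcription factor, by 1.25 ± 0.11 (adjusted p 1.52e-19). Il6 itself was not called at 0.18 ± 0.11 (adjusted p 0.15), with medians of 0.732 CPM in the second sampling and 0.670 CPM in the first. Per score point 10 were higher and 1 lower, beside 36.6% of all genes called, led by Socs3 at 0.47 ± 0.08 and Osm, an interleukin 6 family cytokine, at 0.37 ± 0.07.

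Receptors and partners of the 4 proteins comprised 18 genes, of which 17 were tested, with 9 higher and 2 lower in the second sampling and a median of 0.25, a share called that is near the 62.1% of all genes. The largest differences were in the receptors through which serum amyloid A acts on myeloid cells and their relatives: Fpr1 was higher by 1.63 ± 0.16 (adjusted p 2.72e-18), Fpr2 by 1.54 ± 0.15 (adjusted p 3.75e-17) and Tlr2 by 1.41 ± 0.13 (adjusted p 4.90e-19). Per score point 9 were higher and 1 lower, beside 36.6% of all genes called, led by Blvrb, a biliverdin reductase abundant in red cells, at 0.77 ± 0.16 and the scavenger receptor Cd36 at 0.59 ± 0.13. Erythroid marker genes moved with this list: 11 of 11 were higher in the second sampling and 10 of 11 higher per score point, and their part in it was not tested. Mature neutrophil genes did so too, with 19 of 19 higher in the second sampling (median 1.34) and per score point. The part of neutrophils in the Fpr1, Fpr2 and Tlr2 differences was not tested either.

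Lipases and lipoprotein genes moved in both directions between the samplings. Of 22, 17 were tested, with 8 higher and 7 lower in the second sampling, beside 62.1% of all genes called, and a median of 0.04. Lpl, the lipoprotein lipase that is the closest relative of Lipg in this list together with Lipc, was lower by a log2 of -0.96 ± 0.13 (adjusted p 1.25e-10), with medians of 0.670 CPM in the second sampling and 1.29 CPM in the first. The proprotein convertase genes Pcsk5 and Pcsk6, whose products can cleave these lipases, were lower at -2.36 ± 0.37 (adjusted p 6.83e-09) and -1.71 ± 0.24 (adjusted p 2.29e-10), both at low levels. Their medians in the second sampling were 0 and 0.0476 CPM. Furin, another convertase gene of the list, went the other way, with medians of 11.9 CPM in the second sampling and 6.56 CPM in the first. Per score point 6 were higher and 1 lower, a share called that is near the 36.6% of all genes, led by Mgll at 0.40 ± 0.11 and Pnpla2 at 0.36 ± 0.06, which both release fatty acids from stored lipid.

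Marker genes of cell types that could hold these transcripts moved unequally, in a contrast between samplings where 62.1% of all genes were called. Of 20 mature neutrophil genes 19 were tested, and all 19 were higher in the second sampling (median 1.34) and per score point (median 0.40), and on day 44 in conventional over SPF mice (median 2.17). Their summed level had a lowest of 735, a median of 5697 and a highest of 28324 CPM in the second sampling, against 597, 1990 and 20930 CPM in the first sampling and 692, 1092 and 1952 CPM in SPF mice. Of 10 secondary granule genes, which include Mmp8 and Cd177 of the mature list, 9 were higher and 0 lower in the second sampling, while of 7 primary granule genes, which mark immature precursors, 3 were tested and 1 was higher.

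Hepatocyte genes were near 0 in every group: 2 of 12 passed the filter and 0 were called between the samplings, and their summed level ran from 0 to 1.20 CPM in the second sampling, from 0.0227 to 1.09 CPM in the first and from 0.125 to 0.594 CPM in SPF mice. Alb had a count in 46 of 190 libraries, Apoa1 in 10 and Ttr in 7. Of 12 endothelial genes 2 were higher and 6 lower in the second sampling (median -0.31), a share called near that of all genes, with summed levels of 110 to 482 CPM in it, against 115.4 to 291 CPM in the first and 134.4 to 237 CPM in SPF mice. That sum is mostly Pecam1 and Vwf, with medians of 101.3 and 83.9 CPM in the second sampling. Esam followed at 13.6 CPM, while Cdh5, Tek and Cldn5 had medians of 0.315, 0.470 and 0.117 CPM. Monocyte and macrophage genes were higher in 8 and lower in 2 of 12 (median 0.26), and B cell genes were lower in 10 of 10 (median -0.58). Platelet genes were higher in 9 of 9. Of 9 adipocyte genes 5 were tested, with 2 higher and 3 lower (median -1.33), and of 8 keratinocyte genes 7 were tested, with 0 higher and 4 lower (median -1.06). Of 8 eosinophil genes tested 1 was higher and 4 lower. In the library with 92.1 CPM of Saa3 the hepatocyte genes summed to 0.140 CPM and the endothelial genes to 229 CPM, both inside the range of the other libraries of the second sampling. In that library Pecam1 had 107.1 CPM and Vwf 98.2 CPM, against 0.245 CPM of Cdh5 and 0.0350 CPM of Cldn5.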

How the data were processed

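Tail-vein blood of about 0.1 mL was collected in EDTA tubes, and stranded total-RNA libraries depleted of ribosomal and globin RNA were made with the TruSeq kit, per the labels' protocols. The authors deposited 1 table of expected counts and 1 of TPM per gene, made with DRAGEN on GRCm39, per the submitters' processing notes; its version, the annotation and the strand setting are not given in the sources consulted here. Of the deposited count values, 2.86% are not whole numbers, and all were rounded.

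Genes were filtered by filterByExpr with the 20 groups as design (at least 10 counts, total at least 15), scaled by TMM over 190 libraries and tested with edgeR 4.0.16 (R 4.3.3) by the quasi-likelihood test, two-sided, with Benjamini-Hochberg adjustment over 18192 genes and a threshold of 0.05. SE was taken from the test as |log2 value| over the root of its F statistic. DESeq2 1.42.0, other scalings, no filter, covariates and left-out cohorts or libraries were alternatives. CPM levels divide rounded counts by the TMM-scaled library size. Correlations used log2(CPM + 1) in Python 3.11.15 with scipy 1.17.1. The count fits were also run on simulated counts that had the same spread for all genes. Those counts do not copy genes whose signal sits in few libraries, so they do not vouch for the fits of Saa3 and Lipg.

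Genes named are the 4 themselves, the 5 most alike each, and from each pathway list the 3 called genes with the largest absolute log2 value between samplings and the 2 with the largest score slope. Others are named only as not called, not tested, near 0, shared by lists, part of a list's sum or a relative of a named gene. The 4 genes and all lists were chosen with earlier results of these data known. Each label is a separate sample, and p-values measure only the spread between these libraries; repeated samples of a cohort were taken as independent. Replicate numbers shared by the samplings were checked as pairs: of 95 pairs 37 had a correlation over 0.1 (range -0.35 to 0.63). They were not taken to pair the libraries, but this does not settle whether the animals were the same.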

Additional observations from a re-analysis of the deposited data

Results flagged for a closer look

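Within the 20 groups, 79 sets of values with a spread (4 genes by group) were searched for a highest or lowest library whose gap to its nearest neighbour was too large a part of the group's range by Dixon's criterion. It marked 30 values, all at the high end and 0 at the low end: 9 for Saa3, 5 for Hp, 6 for Lrg1 and 10 for Lipg. Each value is that of 1 gene in 1 library, and several libraries were marked for more than 1 gene, so fewer libraries than values stood apart. For values near a normal distribution the criterion marks about 1 in 20 groups by chance. That rate is no measure here: many groups of Saa3 and Lipg hold zeros, so that only the high end can stand apart, and the genes were chosen with their single high libraries in view. The libraries are therefore listed as a description.

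Replicate 8 of cohort 2 on day 40 stood apart from its group in all 4 genes, with 92.1 CPM of Saa3, 634 CPM of Hp, 115.3 CPM of Lrg1 and 94.02 CPM of Lipg. The next highest libraries of that group had 5.29, 210, 41.5 and 7.66 CPM of the same genes. Replicate 3 of cohort 5 also stood apart in all 4 on day 16, with 1.27 CPM of Saa3, 137.1 CPM of Hp, 28.8 CPM of Lrg1 and 1.88 CPM of Lipg. The library with the same number on day 44 stood apart in 3 genes, at 504 CPM of Hp, 91.3 CPM of Lrg1 and 10.8 CPM of Lipg.

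In the first sampling, replicate 6 of cohort 7 on day 23 stood apart with 5.91 CPM of Saa3, 97.5 CPM of Lrg1 and 33.6 CPM of Lipg. Replicate 2 of cohort 9 on day 30 did so with 19.0 CPM of Saa3, 231 CPM of Hp and 5.51 CPM of Lipg. Replicate 1 of cohort 8 on day 26 had 214 CPM of Hp, 42.3 CPM of Lrg1 and 0.717 CPM of Lipg. Lower values that stood apart in small counts were 0.618 CPM of Saa3 in replicate 3 of cohort 4 on day 12 and 0.648 CPM in replicate 6 of cohort 6 on day 19. For Lipg they were 0.0767 CPM in replicate 1 of cohort 1 on day 2 and 0.0784 CPM in replicate 5 of cohort 3 on day 9.

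In the second sampling, replicate 5 of cohort 3 on day 44 stood apart with 11.8 CPM of Saa3 and 12.1 CPM of Lipg, replicate 4 of cohort 1 on day 44 with 4.72 CPM of Saa3, and replicate 1 of cohort 6 on day 40 with 144.06 CPM of Lrg1. In the SPF cohort on day 16, replicate 1 had 0.195 CPM of Saa3 and replicate 5 had 0.0483 CPM of Lipg, which is 2 counts.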

How the results depend on the processing

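Of 543 values under alternative settings, 473 held, 56 moved further and 14 changed sign. A likeness held where it kept its side of the threshold of adjusted p and, where it passed, its direction. The differences of the slopes and of the changes from day 16 to day 44 were judged in the same way, although no p is given for them. A count held within 1.5 times, and any other difference of the 4 genes where it moved by less than the SD between libraries. By that wide measure the second-sampling score slopes held with the neutrophil covariate, although they shrank by several SE (Saa3 0.23 against 1.18). All 46 alternative values of likeness and concentration held. The cause of each change below was not tested. With the mean of the mature neutrophil genes as a covariate, the first-sampling score slopes changed sign (Saa3 -0.23, Hp -0.084, Lrg1 -0.30, Lipg -0.45), as did the day 44 housing difference of Saa3 (-1.88) and Hp (-0.058), the day 16 housing difference of Saa3 (-2.32) and the trends of Hp (-0.023) and Lipg (-0.39). Within cohorts 6 to 9 the Lipg trend was -0.24. Leaving out 1 library after seeing the data changed the sign of the changes in cohort 7 (Saa3 1.01, Lipg from -2.46 to 0.47 by the library left out) and in cohort 9 (Saa3 from -0.70 to 2.00). It did so too for the day 16 housing difference of Saa3 (-0.85 without cohort 5 replicate 3, against 3.87 without SPF replicate 1). Genes called are given here as a percentage of the 18192 genes tested. Under the neutrophil covariate they came to 18.7% between samplings (62.1% without it), 21.2% in the score slope of the second sampling (36.6%), 0.0055% in that of the first (10.0%), 0.929% between kinds of housing on day 44 (19.7%), 0.967% on day 16 (0.473%), 16.5% in the trend (52.3%), 0.022% in the difference of slopes (0%) and 22.3% in the difference among cohorts (35.3%). With mitochondrial rRNA and globin shares as covariates they were 22% in the second-sampling slope, 2.40% for housing on day 16, 31.4% in the trend and 0.0055% in the difference of the changes from day 16 to day 44. Within cohorts 1 to 4, 23.2% were called in the trend and 7.35% in the difference among cohorts. Within cohorts 6 to 9, 19.9% were called between samplings, 0% in the second-sampling slope by edgeR, 2.53% in the trend and 4.2% among cohorts. DESeq2 called 2.53% for housing on day 16, 1.61% in the difference of slopes and 0.302% in that of the changes, and 0.775% were called in the difference of slopes without a filter. Leaving out 1 cohort at a time gave 56.6% to 64% between samplings and 25.8% to 40.5% in the second-sampling slope. Leaving out 1 SPF replicate gave 10.3% to 15.1% for housing on day 44, where the lowest values followed the removal of SPF replicate 3 (10.3%), SPF replicate 4 (12.1%) or SPF replicate 2 (12.9%). On day 16 it gave 0.148% to 0.594%, with 0.148% for SPF replicate 5, 0.159% for SPF replicate 4 and 0.192% for SPF replicate 2 left out. Without cohort 5 replicate 3 of day 16, 0.275% were called for housing on day 16 and 0.011% in the difference of the changes. Without cohort 7 replicate 6 of day 23, 4.5% were called in the trend within cohorts 6 to 9. DESeq2 gave no adjusted p for Lipg in the difference of the changes. The scaling matters for size: on total counts instead of TMM, the median of all genes between samplings was -0.18 on the log2(CPM + 1) scale, against -0.01, and Hp was 1.04 against 1.46. The replicate numbers were not taken to pair the libraries, and their correlations do not settle whether the same animals were sampled again. With the replicate block the difference between samplings was 3.23 for Saa3, 1.48 for Hp, 1.94 for Lrg1 and 3.51 for Lipg, with 0.291% of genes called for housing on day 16 and 0.187% in the difference of the changes, and 16 second-sampling libraries correlated best with their own number. Depth limits Saa3 and Lipg, whose medians in the first sampling rest on 0 to a few counts per library.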
